A study of Mus musculus with 4 samples.

Results

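The loci of 9 genes of the TNF receptor superfamily and its signalling apparatus were examined for binding of JunB, BATF and IRF4 in activated regulatory T (Treg) cells: the receptors Tnfrsf4 (OX40), Tnfrsf18 (GITR), Tnfrsf9 (CD137), Tnfrsf1b (TNFR2), Tnfrsf8 (CD30), Tnfrsf25 (DR3) and Cd27, the adaptor Traf1, and Tnfaip3, which encodes A20. A ChIP-seq peak was assigned to a gene when its centre lay within 50 kb of any transcription start site (TSS) annotated for the gene in the mm9 assembly. Distances in the text run from a peak centre to the nearest annotated TSS of the named gene, which may be internal. By this rule 147 of the 103355 listed peaks belonged to these loci: 48 of 29659 JunB peaks, 21 of 13570 BATF peaks, 34 of 31093 IRF4 peaks of Junb-sufficient cells and 44 of 29033 IRF4 peaks of Junb-deficient cells.

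The cells were splenic CD4+CD25+ Treg cells of C57BL/6 mice, 6 to 12 weeks old by the study's methods, which were stimulated for 60 h with anti-CD3 and anti-CD28 in the presence of IL-2. JunB, BATF and IRF4 were precipitated from cells with Junb. From cells without Junb only IRF4 was precipitated, and each of the 4 conditions had 1 library. The sample labels give the genotypes as Foxp3cre JUNB+/+ and Foxp3cre JUNBFl/Fl, whereas the study's methods describe Junb fl/fl mice without Cre and Cd4 Cre Junb fl/fl mice. The Cd4 Cre driver acts in T cells at large and not in Treg cells alone. Loss of JunB protein cannot be checked in these lists, which hold no JunB library of the Junb-deficient cells. The lists give no expression values, so the Treg identity of the cells could not be checked against marker genes either. One field of the labels names the antibody, and for the Junb-sufficient BATF and IRF4 libraries it gives the other of these 2 factors. The sample titles were followed, and the shares with the 2 libraries exchanged are given with the alternatives below.

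Many receptors of this superfamily are costimulators: on binding their trimeric ligands they recruit TRAF adaptors and activate NF-kappaB. OX40, GITR, CD137, TNFR2 and DR3 are known for supporting the expansion or survival of Treg cells, and several of these receptors mark activated Treg cells. TRAF1 is itself induced by NF-kappaB, and A20 is an ubiquitin-editing enzyme that limits NF-kappaB signalling. JunB and BATF are basic leucine zipper proteins of the AP-1 family. They bind AP-1 sites (TGACTCA) as dimers, and BATF-JUN dimers bind together with IRF4 at composite AP-1-IRF elements (AICE).

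The recorded depth ranged from 21127029 tags in the IRF4 library of Junb-deficient cells to 27399986 tags in the JunB library. Each peak carries a score of 1, so that a site was either listed or not listed and no binding strength could be compared. The place in the list was used as the only ordering, given as a percent of the list with the first peak near 0. The file headers do not name this order. Of all Junb-sufficient IRF4 peaks, 5.05% in the first 10% of the list and 67.9% in the last 10% had no overlapping Junb-deficient IRF4 peak. The lists consist of runs in genome order: 92.8% of successive JunB peaks and 82.5% of successive Junb-sufficient IRF4 peaks were on the same chromosome at ascending positions, so that within such a run the order is that of the genome and gives no rank. Peaks overlapping by at least 1 bp were counted as shared, and overlap of JunB or BATF with IRF4 refers to the IRF4 peaks of Junb-sufficient cells unless stated. An IRF4 peak was called kept when the list of the other genotype held an overlapping IRF4 peak, and missing when it did not. With 1 library per genotype there was no replicate check and no test between genotypes, and intervals are exact (Clopper-Pearson) 95% binomial intervals that cover counting error over peaks only. A peak present in fewer cells and a peak weaker in every cell cannot be told apart.

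The sites that the results turn on are shown first, as the plus strand of mm9 under the JunB peak, written 5′ to 3′ in lower case. Capitals mark AP-1 matches (TGACTCA on either strand) and AICE matches. As AICE, on both strands, GAAA directly followed by TGANTCA or TGANTAA was searched, and TTTC followed by 4 bases of any kind and the same letters. Such a match can overlap an AP-1 match. The first set holds sites at which all 4 libraries had a peak, for each gene that had one the site standing highest in the JunB list. At Traf1 and Tnfaip3 another site stood higher in the BATF list and both IRF4 lists. The Tnfaip3 distance given below is from its most downstream annotated TSS.
Tnfrsf4 and Tnfrsf18, 5.3 kb upstream of Tnfrsf4, chr4:155382543-155382693: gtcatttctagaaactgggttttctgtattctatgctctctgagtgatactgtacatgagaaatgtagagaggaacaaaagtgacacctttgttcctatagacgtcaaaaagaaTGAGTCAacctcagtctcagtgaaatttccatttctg
Tnfrsf9, 0.9 kb upstream of an internal TSS, chr4:150298430-150298580: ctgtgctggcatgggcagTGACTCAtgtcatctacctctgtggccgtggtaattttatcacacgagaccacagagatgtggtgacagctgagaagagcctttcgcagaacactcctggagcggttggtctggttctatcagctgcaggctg
Tnfrsf8, 27.2 kb upstream, chr4:144932156-144932306: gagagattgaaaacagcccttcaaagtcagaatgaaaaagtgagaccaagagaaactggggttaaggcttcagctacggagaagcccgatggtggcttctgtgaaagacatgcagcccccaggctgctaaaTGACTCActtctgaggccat
Traf1, intron, chr2:34810008-34810158: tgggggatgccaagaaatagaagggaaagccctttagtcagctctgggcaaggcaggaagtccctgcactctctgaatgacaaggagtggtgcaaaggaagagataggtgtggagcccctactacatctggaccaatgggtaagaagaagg
Tnfaip3, 15.7 kb downstream of the TSS, chr10:18712899-18713049: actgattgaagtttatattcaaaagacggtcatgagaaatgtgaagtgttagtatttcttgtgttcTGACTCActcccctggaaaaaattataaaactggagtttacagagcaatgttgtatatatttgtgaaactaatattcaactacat

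The second set holds the sites at which a Junb-sufficient IRF4 peak overlapping JunB was missing in Junb-deficient cells. The Tnfrsf18 distance given below is from its last annotated TSS.
Tnfrsf9, 1.1 kb downstream of the most upstream TSS, chr4:150289684-150289834: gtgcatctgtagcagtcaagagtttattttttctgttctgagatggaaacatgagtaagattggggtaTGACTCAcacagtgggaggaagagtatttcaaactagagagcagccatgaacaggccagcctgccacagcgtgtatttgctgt
Tnfrsf4 and Tnfrsf18, 3.7 kb downstream of the Tnfrsf18 TSS, chr4:155406133-155406283: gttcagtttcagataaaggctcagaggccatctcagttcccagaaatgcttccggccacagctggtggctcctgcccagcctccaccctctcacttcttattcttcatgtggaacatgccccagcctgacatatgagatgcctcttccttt
Cd27, 28.5 kb upstream, chr6:125215427-125215577: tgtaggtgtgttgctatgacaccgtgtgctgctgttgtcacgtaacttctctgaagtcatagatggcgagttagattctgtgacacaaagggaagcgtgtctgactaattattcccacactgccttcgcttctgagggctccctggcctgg
Cd27, 34.8 kb upstream, chr6:125221721-125221871: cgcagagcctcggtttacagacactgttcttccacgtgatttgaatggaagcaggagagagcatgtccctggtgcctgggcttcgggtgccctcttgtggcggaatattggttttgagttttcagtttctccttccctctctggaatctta

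The third set is from Tnfrsf8 and was chosen after its values were seen. It gives 100 bp to either side of the centre of the JunB peak that held the only AICE match of these loci, and of the JunB peak 152 bp upstream of the TSS, where capitals mark the AP-1 match and 2 overlapping kappaB matches.
Tnfrsf8, intron, AICE, chr4:144900880-144901080: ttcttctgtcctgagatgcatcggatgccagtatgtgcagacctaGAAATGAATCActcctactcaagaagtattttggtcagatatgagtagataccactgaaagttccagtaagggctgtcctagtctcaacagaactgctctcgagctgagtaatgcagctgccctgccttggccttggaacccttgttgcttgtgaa
Tnfrsf8, 152 bp upstream of the TSS, AP-1 and kappaB, chr4:144905119-144905319: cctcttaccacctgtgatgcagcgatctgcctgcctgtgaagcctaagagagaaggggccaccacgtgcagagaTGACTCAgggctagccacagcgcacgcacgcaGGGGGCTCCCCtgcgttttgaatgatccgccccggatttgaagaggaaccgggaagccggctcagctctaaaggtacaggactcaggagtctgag

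An AP-1 match lay under the JunB peak at the Tnfrsf4, Tnfrsf9, Tnfrsf8 and Tnfaip3 sites of the first set but not at the Traf1 site. Of the sites with a missing IRF4 peak, the Tnfrsf9 site had an AP-1 match, 4 bp from the JunB peak centre, and the Tnfrsf18 site and both Cd27 sites had none.

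Most of these loci had more peaks than the median gene. Among 22380 protein-coding genes the median gene had 1 JunB peak, no BATF peak and 2 IRF4 peaks in either genotype, and 64.8% had any JunB peak. The 9 genes had medians of 4 JunB peaks, 2 BATF peaks, 3 Junb-sufficient IRF4 peaks and 6 Junb-deficient IRF4 peaks. Their JunB counts ranged from 1 at Tnfrsf25 to 12 at Tnfrsf8, and 8 of the 9 genes lay above the JunB median. All 9 had IRF4 peaks in both genotypes, beside 74.0% and 73.3% of protein-coding genes, and 8 had BATF peaks, beside 48.9%. Tnfrsf4, Tnfrsf18, Tnfrsf9, Tnfrsf1b and Tnfrsf25 had 3 Junb-sufficient IRF4 peaks each, a number that 44.9% of protein-coding genes reached. Tnfrsf4 and Tnfrsf18 share all their peaks and count as 2 genes in the medians.

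**Figure D1:**
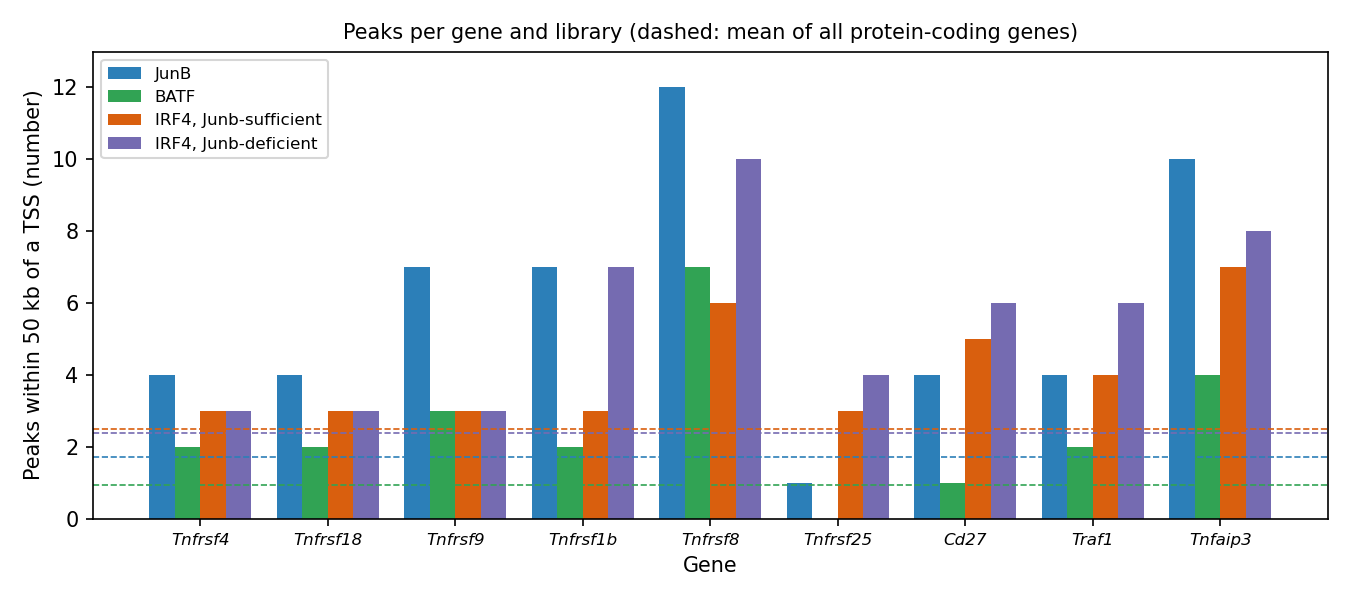
Number of peaks within 50 kb of any TSS of each gene (vertical axis) in the 4 libraries (bars); dashed lines are the means over 22380 protein-coding genes, 1.72 for JunB, 0.934 for BATF, 2.49 for Junb-sufficient IRF4 and 2.39 for Junb-deficient IRF4. Tnfrsf8 with 12 and Tnfaip3 with 10 JunB peaks stand highest, Tnfrsf25 with 1 JunB and no BATF peak stands lowest, and Tnfrsf4 and Tnfrsf18 share the same peaks.

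When overlapping peaks were merged, the 147 peaks formed 70 sites. At 18 sites only JunB had a peak, at 13 all 4 libraries had one, and at 12 only Junb-deficient IRF4 did. A further 7 sites had IRF4 peaks of both genotypes without JunB or BATF, and 6 had JunB with IRF4 of both genotypes. Most JunB peaks lay outside gene bodies: 30 of 48 were intergenic, 11 intronic, 4 exonic and 3 covered a TSS. The same shares over all JunB peaks were not counted. The nearest protein-coding TSS belonged to a member for 40 of 48 JunB peaks but for 23 of 34 Junb-sufficient IRF4 peaks, so 11 IRF4 peaks were nearer to a neighbour than to the gene described here.

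**Figure D2:**
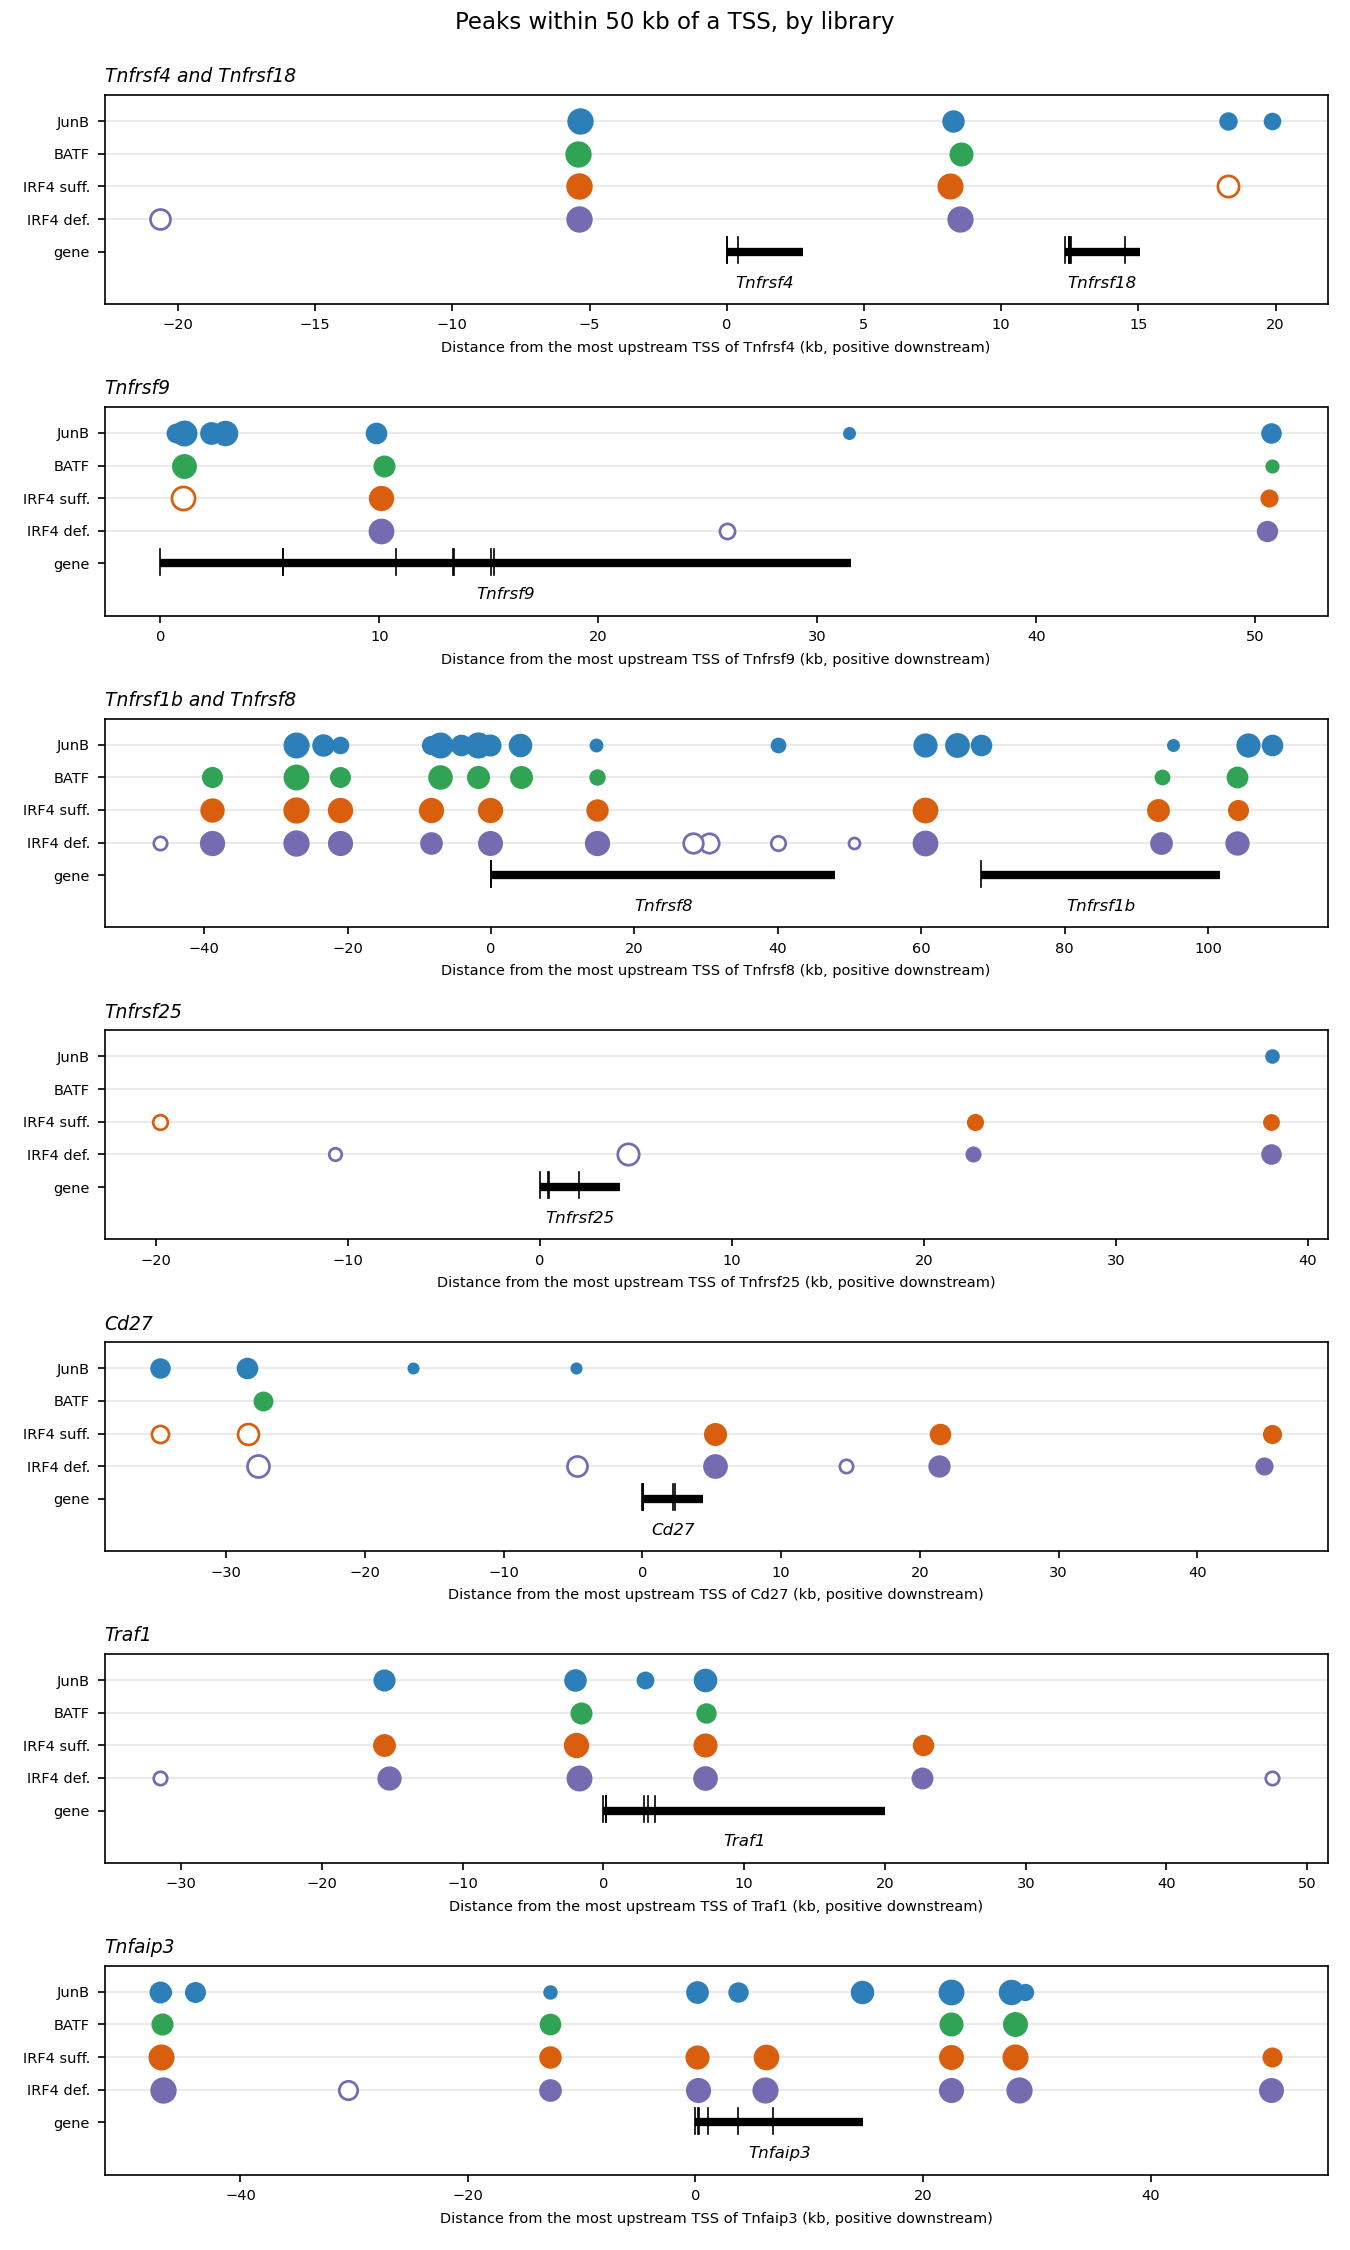
Peaks of the 4 libraries (rows of points) at each locus, by distance from the most upstream TSS in kb, positive in the direction of transcription of the named gene; black bars are gene bodies, ticks are annotated TSSs, and larger points stand earlier in their list. Open points are IRF4 peaks with no overlapping IRF4 peak in the other genotype: 5 of 34 in Junb-sufficient and 15 of 44 in Junb-deficient cells.

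Tnfrsf4 and Tnfrsf18, which encode OX40 and GITR and lie 12.3 kb apart on chromosome 4, shared every peak. There were 4 JunB, 2 BATF, 3 Junb-sufficient and 3 Junb-deficient IRF4 peaks. The highest-placed site of all 9 genes lay here, 5.3 kb upstream of Tnfrsf4, at place 317 of the JunB list (1.07%), 190 of the BATF list (1.40%), 86 of the Junb-sufficient IRF4 list (0.277%) and 246 of the Junb-deficient IRF4 list (0.847%). It covered the start of an annotated transcript of Sdf4, a neighbouring gene, so it cannot be assigned to Tnfrsf4 by position. Its JunB peak held both an AP-1 match and an ISRE match (GAAA, 2 bases of any kind, and GAAA again), the element of IRF proteins.

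The second site with all 4 libraries lay between the genes, 4.1 kb upstream of Tnfrsf18 at the JunB peak. Its IRF4 peak stood at 3.63% of the Junb-sufficient list and at 1.81% of the Junb-deficient list, with centres 366 bp apart. The third IRF4 peak lay 3.7 kb downstream of the last annotated Tnfrsf18 TSS, at chr4:155405903-155406515. It stood at 24.0% of its list, overlapped JunB without BATF, and was missing in Junb-deficient cells. Among IRF4 peaks at JunB in the same 10% of the list, 22.0% were missing. Junb-deficient cells had a further IRF4 peak 20.6 kb upstream of Tnfrsf4, at another annotated start of Sdf4, which was not listed in Junb-sufficient cells.

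Tnfrsf9, which encodes the inducible costimulator CD137, had 7 JunB peaks, a number that 3.99% of protein-coding genes reached, with 3 BATF, 3 Junb-sufficient IRF4 and 3 Junb-deficient IRF4 peaks. All 3 of its BATF and Junb-sufficient IRF4 peaks coincided at JunB peaks. JunB peaks crowded the intron after the most upstream TSS: the peaks 0.7, 1.1 and 2.3 kb downstream of it were joined by another 2.6 kb upstream of the next TSS.

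The earliest-listed missing IRF4 peak of the 9 genes was in this intron, at chr4:150289429-150290041, 1.1 kb downstream of the most upstream Tnfrsf9 TSS and 1.2 kb from a TSS of Park7. It stood at place 2103 of the Junb-sufficient list (6.76%) and overlapped a BATF peak (15.4%) and 2 JunB peaks (5.52% and 56.3%). In the first 10% of the list 4.95% of IRF4 peaks at JunB were missing. The nearest Junb-deficient IRF4 peak was 8998 bp away and was itself the counterpart of another Tnfrsf9 peak. That kept peak, 0.7 kb upstream of an internal TSS, stood at 11.7% of the Junb-sufficient list and at 7.20% of the Junb-deficient list. The third IRF4 peak, 35.4 kb downstream of the last TSS, was also kept and stood at 68.5% and 45.5%. Of the 3 IRF4 peaks of Tnfrsf9 in Junb-sufficient cells, the missing one stood earliest in the list.

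Tnfrsf8, which encodes CD30, had 12 JunB peaks, and 0.702% of protein-coding genes had as many. Its 7 BATF peaks were reached by 0.541% of genes and its 10 Junb-deficient IRF4 peaks by 0.643%, whereas 10.0% of genes had as many as its 6 Junb-sufficient IRF4 peaks. All 6 of those IRF4 peaks were kept. The site 27.2 kb upstream stood early in each list, at 5.03% for JunB, 6.09% for BATF, 1.92% for Junb-sufficient IRF4 and 1.60% for Junb-deficient IRF4. IRF4 peaks of both genotypes covered the TSS and overlapped a JunB peak centred 152 bp upstream, without BATF, and the IRF4 peak stood at 12.1% and 14.3% of the 2 lists.

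At Tnfrsf8, 3 sites had JunB and BATF peaks but no IRF4 peak in either genotype, the only sites of this kind among the 9 genes. They lay 7.2 kb and 1.8 kb upstream and 4.1 kb downstream of the TSS, and their JunB peaks stood at 5.20%, 3.34% and 27.4% of the list. Such sites made up 3 of 48 JunB peaks (6.25%, 1.31 to 17.2) and 3 of 21 BATF peaks (14.3%, 3.05 to 36.3). Their share near all genes was not counted, and Tnfrsf8 also had the most JunB and BATF peaks of the 9 genes. The intronic site 4.1 kb downstream held the AICE match GAAATGAATCA, 50 bp from the JunB peak centre and on the plus strand. At no other site of these loci did a JunB, BATF or IRF4 peak have an AICE match within 100 bp of its centre. The nearest Junb-sufficient IRF4 peaks were 4198 bp, 1678 bp and 1248 bp from the intronic, the 1.8 kb and the 7.2 kb site. The nearest Junb-deficient ones were 4195 bp, 1681 bp and 1196 bp away. The peak caller kept Junb-sufficient IRF4 peaks at least 1224 bp apart and Junb-deficient ones at least 1210 bp apart. At the 7.2 kb site the Junb-deficient distance was below that spacing. The part of the spacing in the absence of IRF4 peaks was not tested.

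The kept IRF4 peak that stood farthest lower in the Junb-deficient list was at Tnfrsf8 too, 8.4 kb upstream at a JunB peak with an AP-1 match, at 12.4% in Junb-sufficient and 34.8% in Junb-deficient cells. In the opposite direction, the intronic IRF4 peak 14.8 kb downstream of the TSS moved from 37.1% to 12%. The gene had 4 Junb-deficient IRF4 peaks that were not listed in Junb-sufficient cells, 3 of them in its introns, and the intronic ones also lay within 50 kb of Tnfrsf1b. Of these 4, only the peak 28.3 kb upstream of Tnfrsf1b overlapped JunB.

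Tnfrsf1b, which encodes TNFR2 and lies 68.3 kb from the Tnfrsf8 TSS, also had 7 JunB peaks, yet none overlapped both BATF and IRF4 and 6 of the 7 overlapped neither. Its 2 BATF peaks, 35.7 kb and 25.2 kb downstream of the TSS, coincided with IRF4 peaks of both genotypes but not with JunB. A JunB peak at 43.1% of the list covered the TSS itself. All 3 Junb-sufficient IRF4 peaks were kept. The peak 7.8 kb upstream, the only IRF4 peak of this gene at JunB in both genotypes, stood at almost the same place, 6.95% and 7.0%. The downstream IRF4 peak nearest to Vps13d moved up by 26.85 points of the list, from 47.5% to 20.6%, and the intronic one stood 1.03 points lower. Of the 7 Junb-deficient IRF4 peaks, 4 were not listed in Junb-sufficient cells.

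Tnfrsf25, which encodes DR3, the receptor of TL1A, had 1 JunB peak and no BATF peak. That JunB peak stood at 88.6% of the list and lay 36.1 kb downstream of Tnfrsf25, nearer to Espn. The 3 Junb-sufficient IRF4 peaks stood at 73.1% or later, and each was nearer to Plekhg5 or Espn. The peak missing in Junb-deficient cells, at chr4:151469969-151470581, lay in an intron of Plekhg5, 19.8 kb upstream of Tnfrsf25, away from JunB, and at 73.1% of the list. In the same 10% of the list 51.8% of all IRF4 peaks were missing. The kept peak near Espn at the JunB site moved up by 25.21 points and the other kept peak stood 5.99 points lower. The peak nearest to the gene was a Junb-deficient IRF4 peak 2.6 kb downstream of a Tnfrsf25 TSS at 22.6% of its list, which was not listed in Junb-sufficient cells.

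Cd27, the receptor of CD70, had 4 JunB, 1 BATF, 5 Junb-sufficient IRF4 and 6 Junb-deficient IRF4 peaks, and none of its JunB peaks overlapped BATF. Both of its IRF4 peaks at JunB were missing in Junb-deficient cells. They lay 28.5 kb upstream at chr6:125215189-125215801, at 26.9% of the list, and 34.8 kb upstream at chr6:125221477-125222089, at 57.2%. Among all IRF4 peaks at JunB in the same 10% of the list as each, 22.0% and 39.7% were missing. The first had a Junb-deficient IRF4 peak at 17.4% of its list with its centre 781 bp away, which did not overlap it but overlapped the BATF peak. The nearest protein-coding TSS to both was that of Tuba3a, and both also lay within 50 kb of Ltbr, another receptor of the superfamily.

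The 3 kept IRF4 peaks of the Cd27 window lay at starts of neighbouring genes, Tapbpl, Vamp1 and Mrpl51 with Ncapd2, and none overlapped JunB. The one at Tapbpl, 2.9 kb from the nearest Cd27 TSS, moved up by 14.92 points, from 31.6% to 16.7%, and the one at Ncapd2 stood 6.41 points lower. No peak covered a Cd27 TSS.

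Traf1, which encodes an adaptor of OX40, CD137, TNFR2 and CD30, had 4 JunB, 2 BATF, 4 Junb-sufficient IRF4 and 6 Junb-deficient IRF4 peaks. All 4 IRF4 peaks were kept, and all stood higher in the Junb-deficient list. The site 3.6 kb downstream of an internal TSS, in an intron, had peaks in all 4 libraries, with IRF4 at 22.6% and 17.3%. Upstream of the gene, 1.9 kb from the TSS, IRF4 stood at 11.7% and 4.88%, next to JunB at 35.8% and BATF at 39.8% peaks that did not overlap each other. The peak that moved farthest, 15.6 kb upstream at a JunB peak with an AP-1 match, went from 33.4% to 21.2%, and the one that moved least, 19.0 kb downstream, from 44.9% to 40.9%. The 2 Junb-deficient IRF4 peaks without a counterpart both stood at 80.5% of the list and at the starts of Phf19 and Hc.

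Tnfaip3 had 10 JunB peaks, as many as 1.32% of protein-coding genes, with 4 BATF, 7 Junb-sufficient IRF4 and 8 Junb-deficient IRF4 peaks. It had the most JunB peaks overlapping both BATF and IRF4, 5 of 10, which 0.795% of genes reached. All 7 Junb-sufficient IRF4 peaks were kept, and each stood higher in the Junb-deficient list. The smallest rises were 1.15 points, 15.7 kb downstream, 1.19 points, 12.8 kb upstream, and 1.42 points, 21.2 kb downstream. Order within a run of the list gives no rank, so shifts this small may not be differences in rank. The largest was 40.65 points at the peak 43.9 kb downstream and away from JunB, from 55.2% to 14.6%, the largest among the 9 genes. The sites 21.2 kb downstream and 47.0 kb upstream stood early in both IRF4 lists, at 3.89% and 2.47% and at 4.03% and 1.12%. At the first of these the IRF4 centres of the 2 genotypes lay 423 bp apart, and the JunB peak overlapped the Junb-sufficient IRF4 peak only.

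At the Tnfaip3 start, IRF4 peaks of both genotypes (22.4% and 13.3% of the lists) covered annotated TSSs and overlapped a JunB peak (34.5%) centred 76 bp from a TSS, without BATF, as at Tnfrsf8. A second JunB peak, at 52.7% of the list, covered an internal TSS. In both genes the JunB peak near the start and the overlapping Junb-sufficient IRF4 peak held an AP-1 match and a match to the kappaB consensus, the site of NF-kappaB.

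Across the 9 genes, 15 of 48 JunB peaks (31.2%, 95% interval 18.7 to 46.3) overlapped both BATF and IRF4, beside 34.1% of JunB peaks within 50 kb of any protein-coding TSS (the peaks near all genes, as in each comparison that follows) and 30.1% of all JunB peaks. With centres within 100 bp as the rule the share was 14.6% (6.07 to 27.8), beside 29.5%, so its nearness to the background depended on the overlap rule. The 15 peaks were spread unevenly: 5 lay at Tnfaip3, 4 at Tnfrsf9, 3 at Tnfrsf8, 2 at Tnfrsf4 and Tnfrsf18, 1 at Traf1, and none at Tnfrsf1b, Tnfrsf25 or Cd27. Thus 6 of the 9 genes had such a peak, beside 35.1% of protein-coding genes. Seen from BATF, 13 of 21 peaks (61.9%, 38.4 to 81.9) overlapped both JunB and IRF4, beside 65.1%. A further 20 JunB peaks (41.7%, 27.6 to 56.8) overlapped neither, beside 47.8%. Seen from IRF4, 23 of 34 Junb-sufficient IRF4 peaks (67.6%, 49.5 to 82.6) overlapped JunB, beside 38.5% near all genes. These IRF4 peaks stood early in their list, with a median place of 23.3% beside 50.2%, and 79.4% of them were in the first 50% of the list, beside 49.8%. Early IRF4 peaks overlapped JunB more often: 3009 of all 3110 did in the first 10% of the list and 241 of 3109 in the last 10%. The part of list place in this share was not tested.

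Of the 34 Junb-sufficient IRF4 peaks, 5 were missing in Junb-deficient cells (14.7%, 4.95 to 31.1), beside 34.3% near all genes and 35.0% of all such peaks. Within the first 50% of the list the shares were 3 of 27 (11.1%, 2.35 to 29.2) and 18.6%. At JunB peaks, 4 of 23 were missing (17.4%, 4.95 to 38.8), beside 23.4%, and away from them 1 of 11 (9.09%, 0.230 to 41.3), beside 41.1%. At sites with both JunB and BATF 1 of 14 was missing (7.14%, 0.181 to 33.9), beside 16.0%, and at JunB peaks without BATF 3 of 9 (33.3%, 7.49 to 70.1), beside 41.7%. The interval for all 34 peaks did not hold its background share, and the others did. The 34 peaks stood early in their list, with a median place of 23.3% beside 50.2%. Early peaks were less often missing, 5.05% of all peaks in the first 10% of the list and 67.9% in the last 10%. The part of list place in the difference was not tested. That difference depended on the settings: with centres within 100 bp as the rule for a counterpart, 38.2% were missing (22.2 to 56.4), beside 45.0%, and with BATF and IRF4 exchanged 19.0% (5.45 to 41.9), beside 24.9%, and both intervals held the background share. Each of the 5 missing peaks had 1 Junb-deficient IRF4 peak within 10 kb. It lay 781 bp away at the nearer of the Cd27 peaks and 7069 to 9747 bp away at the others. How often this holds for missing peaks near all genes was not counted. None of the 20 Junb-sufficient IRF4 peaks of Tnfrsf1b, Tnfrsf8, Traf1 and Tnfaip3 was missing, which left all 5 at Tnfrsf4 with Tnfrsf18, Tnfrsf9, Tnfrsf25 and Cd27. A missing IRF4 peak was thus found at 5 of the 9 genes, beside 49.3% of protein-coding genes.

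**Figure D3:**
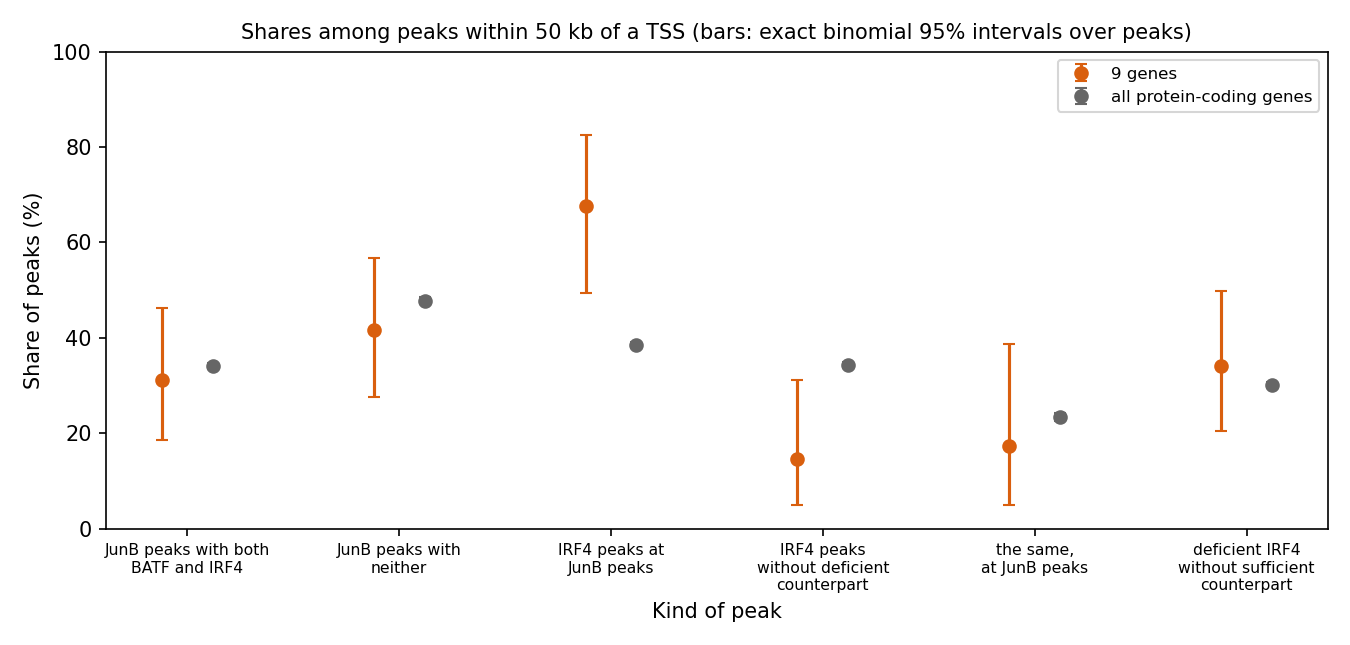
Share of peaks in percent (vertical axis) for 6 kinds of peak (horizontal axis), for the 9 genes and for all peaks within 50 kb of a protein-coding TSS; bars are exact binomial 95% intervals over peaks. The share of IRF4 peaks at JunB (67.6% beside 38.5%) and the share of IRF4 peaks without a Junb-deficient counterpart (14.7% beside 34.3%) differ most, and the intervals of the other 4 kinds hold the background share. The part of list place in the shares that differ most was not tested.

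In the other direction, 15 of 44 Junb-deficient IRF4 peaks (34.1%, 20.5 to 49.9) had no Junb-sufficient counterpart, beside 30.2% near all genes and 30.4% of all such peaks. Each of the 9 genes had at least 1, beside 46.1% of protein-coding genes. Of these, 13 lay away from JunB peaks, where they made up 54.2% of 24 peaks (32.8 to 74.4, beside 41.6%). At JunB peaks they made up 10.0% of 20 (1.23 to 31.7, beside 7.63%). The 2 at JunB peaks were 4.7 kb upstream of Cd27, at 34.1% of the list, and in an intron of Tnfrsf8 at 74.2%. The JunB peaks there stood at 99.7% and 82.7% of the JunB list.

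The 29 kept IRF4 peaks stood mostly higher in the Junb-deficient list: 21 did (72.4%, 52.8 to 87.3), beside 49.0% near all genes, with a median difference, Junb-deficient minus Junb-sufficient place, of -4.02 points of the list beside 0.21. The 21 were spread unevenly: all 7 kept peaks of Tnfaip3 and all 4 of Traf1 were among them. Peaks of the same locus need not be independent, which the intervals do not count. At JunB peaks 14 of 19 stood higher (73.7%, 48.8 to 90.9), beside 39.3%, and the median difference was -1.82 points beside 1.98. Away from JunB peaks 7 of 10 stood higher (70.0%, 34.8 to 93.3), beside 56.9%. By 20 points or more 5 peaks stood higher, at Tnfaip3, Tnfrsf1b, Tnfrsf25, Tnfrsf8 and Tnfrsf9, and 12.5% of kept peaks did near all genes. The Tnfrsf8 peak 8.4 kb upstream was the only one that stood lower by as much, beside 14.9%. The highest-placed sites moved little: at Tnfrsf4 with Tnfrsf18 from 0.277% to 0.847%, and 27.2 kb upstream of Tnfrsf8 from 1.92% to 1.60%. A shift of any size was counted as higher or lower, although the order within a run of the list gives no rank. A place in a list depends on all other peaks of that list and is not a measure of binding strength.

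**Figure D4:**
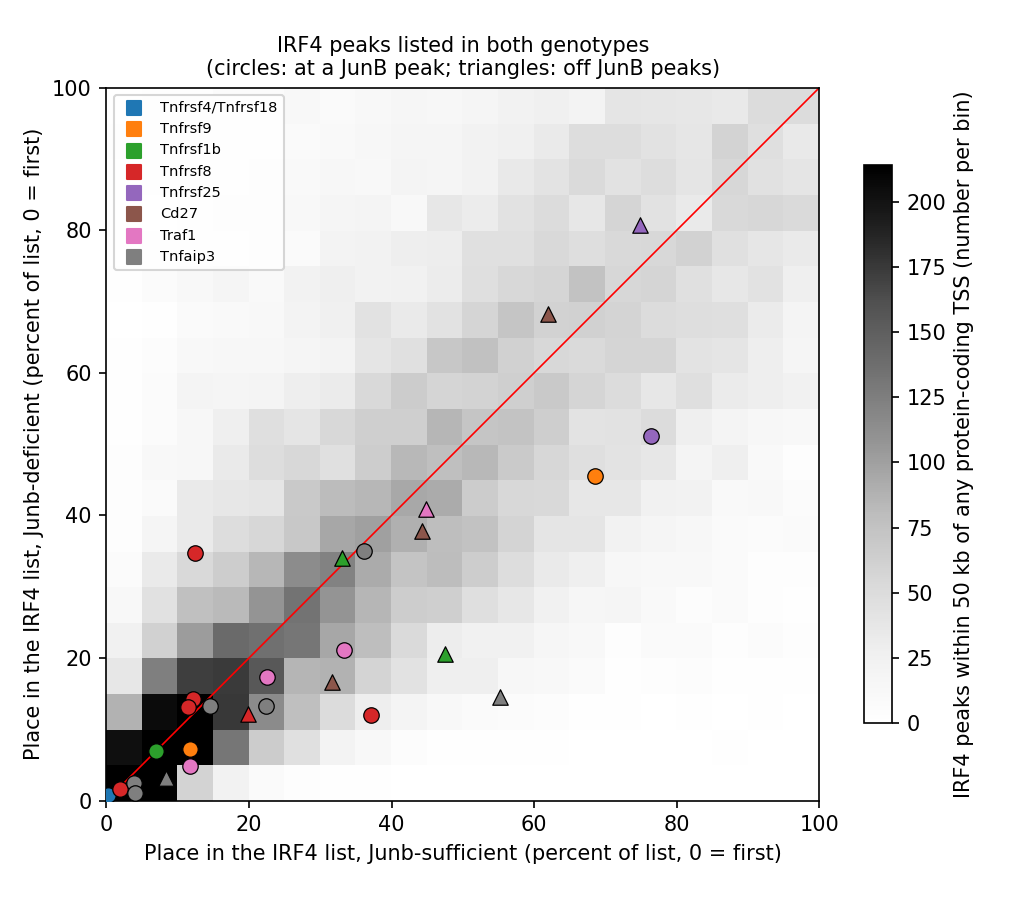
Place of each kept IRF4 peak in the Junb-sufficient list (horizontal axis) and in the Junb-deficient list (vertical axis), in percent of the list with 0 as the first peak; coloured points are the 29 peaks of the 9 genes, circles at JunB peaks and triangles away from them, and grey squares count the 15823 kept peaks near all protein-coding genes. Of the coloured points 21 lie under the red line of equal places, that is, higher in the Junb-deficient list. All 7 points of Tnfaip3 and all 4 of Traf1 are among them.

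An AP-1 match lay within 100 bp of the centre at 18 of 48 JunB peaks (37.5%, 24.0 to 52.6), beside 27.3% of JunB peaks near all genes and 3.20% of windows of the same length 5 kb downstream of them. Among Junb-sufficient IRF4 peaks 9 of 34 had one (26.5%, 12.9 to 44.4), beside 25.4%. AICE matches were at 1 of 48 JunB peaks (2.08%, 0.0527 to 11.1), beside 3.95%, and at 0 of 34 Junb-sufficient IRF4 peaks, which allows a share of up to 10.3%, beside 3.75%. ISRE matches were at 3 of 34 IRF4 peaks (8.82%, 1.86 to 23.7), beside 8.87%. Matches to the kappaB consensus, searched on both strands, were at 5 of 48 JunB peaks (10.4%, 3.47 to 22.7), beside 2.78% near all genes and 1.71% of downstream windows, and at 4 of 34 IRF4 peaks (11.8%, 3.30 to 27.5), beside 4.60%. The JunB peaks with kappaB matches were 3 at Tnfrsf8, 1 at Tnfaip3 and 1 upstream of Tnfrsf18. With the window narrowed to 50 bp to either side, 3 of the 5 remained at JunB and 0 of the 4 at IRF4 peaks. A match is a description of the letters and not evidence of binding by a given factor.

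The rest of the pathway was counted over 46 further genes of the superfamily, its ligands and its signalling proteins. Of these, 38 had a JunB peak within 50 kb, beside 64.8% of protein-coding genes. A JunB peak overlapping both BATF and IRF4 was near 27 of them, beside 35.1%. Among their JunB peaks 47 of 129 overlapped both (36.4%), beside 34.1% near all genes. Of their Junb-sufficient IRF4 peaks 56 of 163 were missing in Junb-deficient cells (34.4%), close to the 34.3% near all genes. At JunB peaks 18 of 69 were missing (26.1%), beside 23.4%. Genes that lie close together, such as Tnf, Lta and Ltb, share peaks, which were counted once in these totals.

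The 14 other receptors had a median of 1 JunB peak, beside 4 in the 9 genes, and 19 of their 38 IRF4 peaks were missing. Tnfrsf19 with 9 and Tnfrsf13b (TACI), a receptor of the B cell factors BAFF and APRIL, with 8 JunB peaks had the most. At Ltbr, the lymphotoxin beta receptor, all 4 IRF4 peaks were missing, of which those upstream of Cd27 were part. The 17 ligands had a median of 3 JunB peaks, and 16 of their 60 IRF4 peaks were missing (26.7%, beside 34.3%). Fasl, the ligand of the death receptor Fas, had 12, Tnfsf8, the ligand of CD30, had 9, and Tnfsf4, the ligand of OX40, had 6. All 4 IRF4 peaks of Tnfsf8 were kept, as at Tnfrsf8.

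The 15 other adaptors and regulators also had a median of 3 JunB peaks. Of their 47 JunB peaks 23 overlapped both BATF and IRF4 (48.9%, beside 34.1% near all genes). Among their 65 IRF4 peaks 21 were missing (32.3%, beside 34.3%). Tnip3 and Tax1bp1, which encode partners of A20, had 8 JunB peaks each with 5 overlapping both, as many as at Tnfaip3. Cyld, which encodes a deubiquitinase that limits NF-kappaB signalling, had 7. At Tnip3 1 of 5, at Tax1bp1 3 of 10 and at Cyld 2 of 4 IRF4 peaks were missing, whereas 0 of 7 were at Tnfaip3.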

How the data were processed

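The authors aligned the reads to mm9 with Bowtie2 and called peaks with HOMER (4.8 in the submitters' processing notes) in each library by itself, at a false discovery rate of 0.001, with at most 1 tag per bp and 4-fold over the surrounding 10 kb. The deposited lists hold positions and a score, which equals 1 throughout. Per the file headers, the local filter removed 5.25% of putative JunB peaks and 36.2% to 37.4% of those of the other libraries, and JunB peaks are 151 bp wide where the others are 605 or 613 bp.

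The 9 genes and the other lists were chosen with earlier results of these data known. TSSs were those of the GENCODE release for this assembly, 69976 for protein-coding genes, and no peak lay beyond a chromosome end. Named peaks were every missing IRF4 peak and every Junb-deficient-only peak at JunB, of the sites of each gene with JunB, BATF and IRF4 the highest in the JunB list, peaks covering a TSS, and the kept peaks that moved farthest. Motifs were matched as fixed letters. Overlap and motif searches were tested on simulated data. Python 3.11.15, NumPy 2.4.6, SciPy 1.17.1 and matplotlib 3.10.9 were used.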

Additional observations from a re-analysis of the deposited data

How the results depend on the processing

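No paired analysis was possible because each condition had 1 library and no result came from a test. Of 50 alternative values, 36 stayed within the interval of the reported value, or within 1.5 times it for counts, and 14 moved beyond it. When shared peaks had to have centres within 100 bp, 14.6% of JunB peaks lay at both BATF and IRF4 (29.5% near all genes), 38.2% of Junb-sufficient IRF4 peaks were missing (45.0%), 38.9% of those at JunB were missing (30.0%, so that the direction relative to all genes turned), and 52.3% of Junb-deficient IRF4 peaks had no counterpart (41.6%). With a window of 10 kb the counts were 25 JunB, 9 BATF, 13 Junb-sufficient and 13 Junb-deficient IRF4 peaks, and 15.4% of the last had no counterpart. With 100 kb there were 61 and 73 IRF4 peaks of the 2 genotypes. The first 50% of the JunB list held 28 of the 48 peaks. With BATF and IRF4 exchanged, as the antibody field has them, 61.4% of Junb-deficient IRF4 peaks had no counterpart (66.5% near all genes). Of the library then taken as IRF4, 4 of 21 peaks were missing (19.0% beside 24.9%), as were 4 of 16 at JunB (25% beside 20.1%, the direction again turned). The share of JunB peaks overlapping both stayed at 31.2% by construction, because the exchange leaves the same 2 libraries. That value is among the 36 and is no check. Within 50 bp of the centre, 0 of the JunB peaks had an AICE match. Fewer peaks or sites were counted by construction under the narrower windows. Under the exchange the list taken as IRF4 held 13570 peaks in place of 31093, beside 29033 Junb-deficient IRF4 peaks. The part of list size in the exchanged shares was not tested. Chosen after seeing the data, IRF4 centres within 1224 bp, the smallest spacing of the list, left 4 of 34 IRF4 peaks missing (11.8%), and 3 of 23 at JunB: the Cd27 peak 28.5 kb upstream was then matched. The background under that rule was 33.4%. A peak needed 10 tags in the JunB library and 19 in the others and had to pass the local filter; sites under these limits cannot be seen here.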
